A study of Mus musculus with 16 samples.

Results

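A set of 10 genes of fatty acid uptake and binding were followed across endothelial cells of mouse liver and lung: Gpihbp1, Lpl, Lipg, Pltp, Cd36, Fabp4, Fabp5, Pparg, Meox2 and Tcf15. They were chosen by symbol, and all 10 were found among the 37991 gene entries of each tissue's count table. The study sequenced RNA of endothelial cells sorted with a CD31 antibody from adult mice, in 16 libraries, 4 for each of 4 groups. The groups were control liver, GOF liver, control lung and GOF lung. Control mice carried the Rosa-Bcat-GOF allele alone (Rosa-Bcat-GOF/+). GOF mice carried Rosa-Bcat-GOF/+ together with VE-Cadherin-CreERT2, a tamoxifen-inducible Cre recombinase driven by an endothelial promoter, and overexpressed activated beta-catenin in endothelial cells. All groups therefore shared the Rosa-Bcat-GOF allele, and since only the GOF mice had the Cre transgene, its presence and that of activated beta-catenin cannot be told apart. The labels used here give no induction schedule and no age beyond adult. The comparisons ask how endothelial beta-catenin signalling changes expression in vessels of peripheral organs. The series describes the 4 libraries of a group as biological samples.

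Capillary endothelium hands fatty acids from blood to the tissue beneath it. GPIHBP1 carries lipoprotein lipase (LPL) to the capillary lumen, where the lipase frees fatty acids from triglyceride-rich lipoproteins. CD36 takes up fatty acids at the membrane, and the cytosolic proteins FABP4 and FABP5 bind them inside the cell. PPARγ is a nuclear receptor that drives Cd36 and Fabp4 in several cell types, and the transcription factors MEOX2 and TCF15 act as a pair to promote fatty acid uptake in mouse heart endothelium. LIPG (endothelial lipase) cleaves mainly phospholipids of high-density lipoproteins, and PLTP moves phospholipids between lipoproteins.

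Promoter sequences from RefSeq (GRCm38.p6, not the mm9 build of the counts), 250 bases before to 50 after a start site, were matched for 4 of the 10 genes, namely Cd36, Pltp, Meox2 and Pparg, the last with 3 start sites. Those of Cd36 and Pltp are shown because these genes passed a test below. Capitals mark the only match among the 6 promoters to a DR1 element, the kind of site that PPAR and RXR receptors bind, searched as 2 copies of AGGTCA 1 base apart with at most 2 mismatches on both strands. The Cd36 promoter lies at chr5:17835847-17836146 on the minus strand, and the Pltp promoter at chr2:164857659-164857958 on the minus strand.
Cd36: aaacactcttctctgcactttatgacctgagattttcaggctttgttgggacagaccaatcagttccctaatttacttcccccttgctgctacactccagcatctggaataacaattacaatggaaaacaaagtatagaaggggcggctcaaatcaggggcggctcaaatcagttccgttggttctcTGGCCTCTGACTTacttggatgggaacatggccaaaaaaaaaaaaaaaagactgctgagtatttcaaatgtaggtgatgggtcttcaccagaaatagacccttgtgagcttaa
Pltp: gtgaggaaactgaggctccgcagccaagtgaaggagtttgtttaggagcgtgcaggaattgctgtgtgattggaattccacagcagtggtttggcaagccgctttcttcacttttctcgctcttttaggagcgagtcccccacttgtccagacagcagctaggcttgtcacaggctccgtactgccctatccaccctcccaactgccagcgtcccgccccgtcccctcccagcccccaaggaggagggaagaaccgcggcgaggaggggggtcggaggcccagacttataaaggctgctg
The match in Cd36 began at base -63 from the start site, on the opposite strand, with 2 mismatches. Such a match was present in 3.86% of 32851 promoters. The TCF/LEF letters CTTTGA, searched on both strands with no mismatch, occurred in 16% of these promoters and in none of the 6. These are matches of letters in short windows and describe no binding.

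Libraries held 22815467 to 37127150 counted reads. Levels are CPM, the reads of a gene scaled to a common library total, and fold changes are log2 values after TMM scaling, given ± SE. Pan-endothelial marker genes summed to between 10653 and 17213 CPM in the 16 libraries. Car4, a lung capillary marker, reached 589 to 1134 CPM in control lung and at most 2.81 CPM in control liver. Clec4g, a liver sinusoidal marker, reached 687 to 1594 CPM in control liver and at most 10.1 CPM in control lung. Not all of the sinusoidal list did so. In the edgeR tests described below, 7 of its 8 tested genes were called higher in control liver and 1 higher in control lung. The list summed to 5388 to 10156 CPM in control liver and 1865 to 2499 CPM in control lung. Axin2, a common target of beta-catenin, averaged 10.3 ± 3.49 CPM in control liver and 44.7 ± 24.97 CPM in GOF liver (SD, n = 4), and 13.5 ± 3.74 and 24.5 ± 5.61 CPM in lung, with groups that did not overlap in either tissue. Such groups with GOF higher occurred in 3.04% of genes in liver and 1.61% in lung. Of the Wnt response list, Axin2 among them, edgeR called 3 of 9 genes higher in liver with libraries paired by letter and 1 without. In lung it called 0 of 8 in both fits. Nkd1, of that list, averaged 66.3 ± 27.0 and 75.7 ± 26.3 CPM in control and GOF liver. In lung Nkd1 averaged 355 ± 84.5 and 404 ± 158 CPM, and its groups overlapped in both tissues. Ctnnb1, which encodes beta-catenin, averaged 836 ± 135 CPM (SD, n = 4) in control liver, 774 ± 127 CPM in GOF liver, 652 ± 38.1 CPM in control lung and 662 ± 80.1 CPM in GOF lung; no source used here says whether transgene reads are counted there. In bulk RNA of sorted cells, fewer cells of a type and less RNA per cell cannot be told apart. Replicate letters recur across genotypes: liver has pairs B, E, F and G, and lung has D in place of G. Libraries of the same letter and tissue deviated together, so each GOF comparison is given without and with these pairs as a block.

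Control lung and control liver endothelium differed in 6 of the 10 genes, 3 in each direction. Lpl, Pltp and Cd36 were higher in lung, and Fabp4, Fabp5 and Gpihbp1 were higher in liver. The fatty acid transporter Cd36 and the binding protein Fabp4 thus had opposite organ patterns. Across all 15806 genes tested, 24.9% passed the same threshold, an adjusted p under 0.05 in edgeR's quasi-likelihood test with Benjamini-Hochberg adjustment over all genes. Lung was higher in 14.0% of genes and liver in 11.0%. These 6 calls held with DESeq2, in which 29.3% of genes passed, with other scalings, without the low-count filter, with replicate letters as a block and without each library in turn. That block matched letters across the organs, of which only B, E and F occur in both. Whether a letter marks the same mouse in both organs is not stated. In CPM, 8 of the 10 had groups that did not overlap: 4 were higher in lung, against 14.7% of 14385 genes with a mean of at least 1 CPM, and 4 were higher in liver, against 18.7%. The counts come from separate tables for each tissue, joined by gene, and no control links the organs' handling.

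Gpihbp1, the lipase carrier, measured 408, 556, 440.5 and 341 CPM in control liver libraries B, E, F and G. In control lung it measured 117, 133, 183 and 205 CPM in libraries B, E, F and D. Every liver library lay above every lung library, and the log2 fold change, lung over liver, was -1.35 ± 0.23 (edgeR adjusted p = 0.00144).

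Lpl, the lipase that GPIHBP1 carries and that adipocytes and muscle cells chiefly make, stood at 4.76, 3.56, 5.65 and 3.90 CPM in control liver. The lung libraries held 40.8, 40.0, 57.7 and 85.5 CPM. The groups did not overlap, library D was the highest, and the log2 fold change was 3.76 ± 0.29 (edgeR adjusted p = 1.06e-05). The adipocyte markers summed to at most 1.70 CPM in control libraries, with Adipoq, Plin1, Lep and Retn at 0 in all 8. Alveolar type 2 markers summed to 1381 to 13102 CPM in control lung, lowest in E and highest in D, and to 142 to 172 CPM in control liver, with the type 2 gene Sftpc at 0 there. Their part in the lung level of Lpl was not tested.

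Lipg was the lowest of the lipase-system genes. Its 4 control liver libraries held 0, 2.72, 1.005 and 2.76 CPM, where 3 reads in the library at 0 would have been 0.110 CPM. The control lung libraries held 2.82, 4.17, 4.98 and 5.26 CPM. Every lung library was above every liver library, yet the log2 fold change of 1.49 ± 1.004 did not pass (edgeR adjusted p = 0.331).

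Pltp, the phospholipid transfer protein, measured 129, 71.2, 60.0 and 75.4 CPM in control liver. In control lung it measured 559, 913, 798 and 1025 CPM. The groups were far apart, with a log2 fold change of 3.43 ± 0.27 (edgeR adjusted p = 1.14e-05). As with Lpl, library D was the highest in lung, where alveolar type 2 markers were also highest. In E, where these markers were lowest, Pltp was at 913 CPM, and their part was not tested.

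Cd36 measured 336, 712, 437 and 407 CPM in control liver. It measured 2233, 2478, 3564 and 2668 CPM in control lung, so that the lowest lung library exceeded the highest liver library, and the log2 fold change was 2.62 ± 0.28 (edgeR adjusted p = 7.27e-05). Cd36 is also made by macrophages and platelets. Markers of Kupffer cells and other macrophages summed to 18.2 to 163 CPM in control liver and 35.3 to 84.4 CPM in control lung. Alveolar macrophage markers summed to at most 12.9 CPM in control liver and to 6.56 to 19.7 CPM in control lung. Platelet markers summed to 750.2 CPM in lung library E against 37.1 to 97.9 CPM in the other 3. The part of these cells in the Cd36 level was not tested.

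Fabp4, an abundant fatty acid binding protein of capillary endothelium, showed the widest gap of the 10 genes. It measured 1168, 1036, 1167 and 839.6 CPM in control liver and 38.3, 74.7, 34.9 and 31.8 CPM in control lung. The mean level was 23.4-fold higher in liver, and the log2 fold change, lung over liver, was -4.43 ± 0.31 (edgeR adjusted p = 5.70e-06). Lung library E stood above the other 3.

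Fabp5, a nearby gene of the family on chromosome 3, measured 35.4, 23.3, 33.1 and 23.6 CPM in control liver and 11.1, 6.49, 9.75 and 10.1 CPM in control lung. Again the groups did not overlap, with a log2 fold change of -1.50 ± 0.24 (edgeR adjusted p = 0.000882). Fabp5 has near-identical copies in the mouse genome, so its counts carry the uncertainty of how such reads were assigned. The family members between and beside these genes, Pmp2, Fabp9 and Fabp12, stayed at or below 1.93 CPM in all 16 libraries.

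The transcription factors were low in both organs and none passed. Pparg averaged 8.94 ± 2.55 CPM in control liver and 8.32 ± 4.88 CPM in control lung (SD, n = 4), with overlapping groups (edgeR adjusted p = 0.974). Meox2 averaged 4.22 ± 1.55 and 4.04 ± 2.96 CPM, also overlapping (edgeR adjusted p = 0.986). Tcf15 averaged 3.88 ± 1.90 CPM in liver and 1.62 ± 0.35 CPM in lung. For Tcf15 all 4 liver libraries were above all 4 lung libraries in CPM but not after TMM scaling, and its log2 fold change of -1.11 ± 0.55 did not pass (edgeR adjusted p = 0.180).

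**Figure D1:**
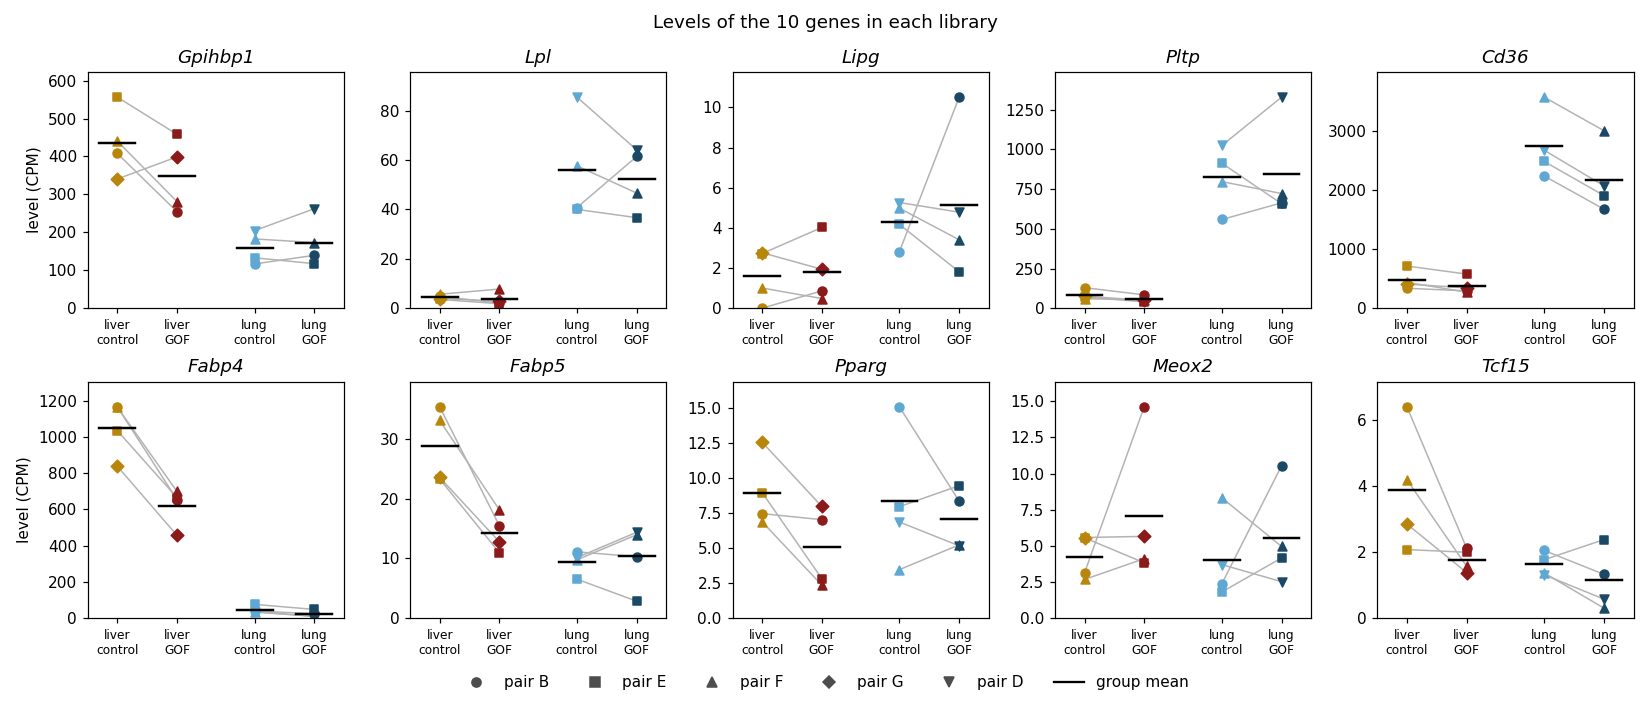
Level of each gene in CPM on a linear axis from 0, by group, with 1 point per library, grey lines joining the control and GOF library of the same letter, and black bars at the mean of 4 libraries. Fabp4 was at 840 to 1168 CPM in control liver and at most 74.7 CPM in control lung, while Cd36 was at least 2233 CPM in control lung and at most 712 CPM in control liver.

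**Figure D2:**
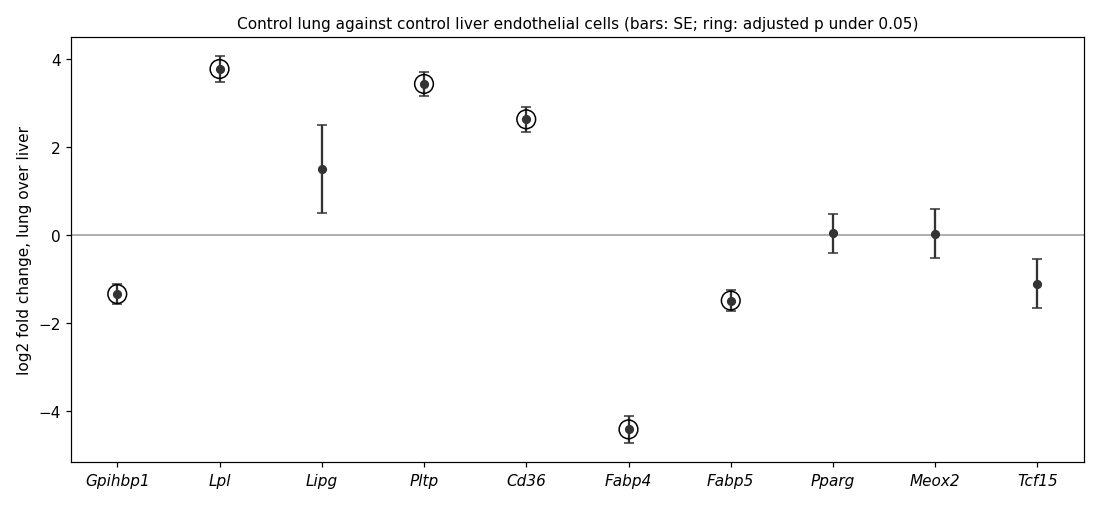
Log2 fold change of each gene, control lung over control liver (n = 4 each), with bars of 1 SE and rings where the adjusted p was under 0.05. Lpl, Pltp and Cd36 lie above 0 with rings and Gpihbp1, Fabp4 and Fabp5 below it, while Lipg and the 3 transcription factors have none.

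Levels of different genes were compared per kilobase of annotated exon (GENCODE M21 on GRCm38, the union of all exons of a gene, which is not the annotation of the counts). This union was 4489 bases for Fabp4, 2554 for Gpihbp1, 3590 for Cd36, 3567 for Fabp5 and 10478 for Lpl. Which transcripts were expressed was not examined, so the order depends on these lengths. In control liver the order of mean levels, in CPM per kilobase, was Fabp4 at 235, Gpihbp1 at 171, Cd36 at 132, Pltp at 32.8 and Fabp5 at 8.09. The library ranges of the first 3 overlapped (187 to 260 for Fabp4, 133 to 218 for Gpihbp1 and 93.6 to 198 for Cd36), so their order by this measure was not distinct. Pltp and Fabp5 were each separated from the genes above them. In CPM not divided by length, Fabp4 at 839.6 to 1168 lay above Cd36 at 336 to 712 and Gpihbp1 at 341 to 556. Tcf15, Pparg, Meox2, Lpl and Lipg followed at 3.96 down to 0.344. In control lung, Cd36 at 762 and Pltp at 322 CPM per kilobase led without overlap, followed by Gpihbp1 at 62.3, Fabp4 at 10.01 and Lpl at 5.34. Gpihbp1 was separated from both neighbours in that order, and the ranges of Fabp4 and Lpl overlapped.

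In liver, GOF endothelium had less of both binding proteins and of Pltp when libraries were paired by letter. Fabp4 was 1.70-fold and Fabp5 2.02-fold lower in mean CPM, with all 4 GOF libraries below all 4 controls, and Pltp was 1.49-fold lower. These 3 passed in the paired edgeR fit, in which 2.58% of 15555 genes passed and 1.04% were lower. In the unpaired edgeR fit 0 of the 10 passed, where 0.0321% of all genes did (5 genes; 1010 genes and 4 of the 10 had an unadjusted p under 0.05). Unpaired DESeq2 called Fabp4 and Fabp5 among 0.966% of genes, and the authors' deposited table, in which 130 of 15681 genes had an FDR under 0.05, lists the same genes at log2 fold changes of -0.65 and -0.83. No gene of the 10 was called higher by any of these fits. In CPM, 6 of the 10 (Pltp, Cd36, Fabp4, Fabp5, Pparg and Tcf15) were lower in GOF in all 4 pairs, against 12.7% of the 13858 genes with a mean of at least 1 CPM.

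Fabp4 measured 654, 665, 699.5 and 456 CPM in GOF libraries B, E, F and G of liver, against 1168, 1036, 1167 and 839.6 CPM in the controls of the same letters. Each GOF library was at 0.543 to 0.642 of its control. Groups that do not overlap with GOF lower occurred in 1.89% of genes. The paired log2 fold change was -0.76 ± 0.082 (edgeR adjusted p = 0.000729), and the unpaired value was -0.75 ± 0.19 (edgeR adjusted p = 0.301). Without each pair in turn the paired call held, with adjusted p-values of at most 0.00669.

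Fabp5 measured 15.4, 10.9, 18.1 and 12.8 CPM in the GOF libraries, against 35.4, 23.3, 33.1 and 23.6 CPM in control. Each GOF library was at 0.436 to 0.547 of its control, with no overlap of the groups. Paired, the log2 fold change was -1.001 ± 0.16 (edgeR adjusted p = 0.00639), and the unpaired value was -1.001 ± 0.20 (edgeR adjusted p = 0.145). This call also held without each pair, at adjusted p-values of at most 0.0293. Gm9833, a transcribed pseudogene annotated between Fabp5 and Pmp2, averaged 12.02 ± 3.73 CPM (SD, n = 4) in control liver and 18.1 ± 6.09 CPM in GOF liver.

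Pltp measured 83.9, 40.1, 51.8 and 49.7 CPM in GOF, against 129, 71.2, 60.0 and 75.4 CPM in control. It was lower in each pair, least in F, although the groups overlapped because library B was high in both genotypes. With pairs the log2 fold change was -0.56 ± 0.12 (edgeR adjusted p = 0.0290), against -0.57 ± 0.24 unpaired (edgeR adjusted p = 0.732). The paired call was lost without pair B (adjusted p = 0.0917), without E (0.140) or without G (0.0805).

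Cd36 was lower in each of the 4 liver pairs, at 293, 576, 271 and 344 CPM in GOF against 336, 712, 437 and 407 CPM in control. Its groups overlapped widely. Library E was high in both genotypes, and GOF library G at 344 CPM also exceeded control library B at 336 CPM. The paired log2 fold change of -0.35 ± 0.097 did not pass in edgeR (adjusted p = 0.0900) and passed in paired DESeq2 (adjusted p = 0.0102), where 6.11% of all genes did; over all paired alternatives the adjusted p ranged from 0.0102 to 0.343.

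The lipase genes did not pass. Gpihbp1 measured 254, 458, 281 and 399 CPM in GOF against 408, 556, 440.5 and 341 CPM in control. It was lower in pairs B, E and F and higher in G, where the ratio was 1.17. Its paired log2 fold change was -0.34 ± 0.14 (edgeR adjusted p = 0.265), which became -0.53 (adjusted p = 0.0349) without pair G. Lpl was at 2.16, 1.82, 7.76 and 2.86 CPM in GOF and lower in 3 of 4 pairs (paired log2 fold change -0.51 ± 0.45, edgeR adjusted p = 0.677). Lipg was at 0.862, 4.02, 0.482 and 1.94 CPM in GOF, higher in 2 pairs and lower in 2 (paired log2 fold change 0.58 ± 1.13, edgeR adjusted p = 0.878), and the sign of this value turned without pair B.

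Among the transcription factors, Pparg measured 7.01, 2.80, 2.33 and 7.95 CPM in GOF liver against 7.44, 8.94, 6.86 and 12.5 CPM in control. It was lower in every pair, but pair B hardly moved, with a ratio of 0.942, and E and F were at 0.313 and 0.340 of control. The paired log2 fold change of -0.97 ± 0.34 did not pass (edgeR adjusted p = 0.179). Tcf15 measured 2.12, 1.99, 1.57 and 1.38 CPM in GOF against 6.41, 2.07, 4.20 and 2.85 CPM in control, with pair E nearly level; these values rest on 39 to 175 reads a library. Its groups overlapped in CPM and not after TMM scaling, and the paired value of -1.03 ± 0.57 did not pass (edgeR adjusted p = 0.442). Meox2, the partner of TCF15, measured 14.6, 3.82, 4.10 and 5.65 CPM in GOF against 3.11, 5.55, 2.66 and 5.57 CPM in control. Pair B differed most, 4.70-fold higher in GOF, and the paired value of 0.57 ± 0.46 did not pass (edgeR adjusted p = 0.641).

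Markers of other cells moved in part with these genes in liver. Hepatocyte markers summed to 860 to 4306 CPM in control and 696 to 2062 CPM in GOF libraries, highest in B of both genotypes. They were lower in GOF in 3 of 4 pairs and were 887 and 942 CPM in the control and GOF libraries of pair G. Stellate, mesothelial and heart muscle markers were lower in GOF in all 4 pairs, with mesothelial sums of 52.5 to 165 CPM in control and 25.4 to 81.1 CPM in GOF, stellate sums of 355 to 491 and 300.1 to 487 CPM, and heart muscle sums of 15.4 to 49.97 and 9.29 to 15.02 CPM. Fibroblast sums (307 to 1226 CPM in control, 85.9 to 590 CPM in GOF) were lower in 3 of 4 pairs. So were those of pericytes and smooth muscle (47.4 to 211 and 25.7 to 58.4 CPM). Markers of Kupffer cells and other macrophages (18.2 to 163 and 15.3 to 83.4 CPM) were lower in 2 of 4 pairs. In pair G they were 163 CPM in control and 48.9 CPM in GOF. Those of lymphocytes, neutrophils and monocytes (1.39 to 17.7 and 8.79 to 13.3 CPM) were lower in 1 of 4. Paired edgeR called lower 2 of 12 hepatocyte, 1 of 5 mesothelial, 1 of 3 heart muscle and 1 of 7 fibroblast genes tested. It called no stellate, pericyte, smooth muscle or Kupffer cell gene, nor one of lymphocytes, neutrophils and monocytes. The part of these cells in the lower values was not tested. Adipocyte markers summed to at most 1.05 CPM in any liver library, with Plin1 at 0 in all 8, and pan-endothelial markers averaged 15586 ± 1294 CPM (SD, n = 4) in control libraries and 15520 ± 755 CPM in GOF libraries. Liver sinusoidal endothelial markers summed to 5388 to 10156 CPM in control and 3855 to 9437 CPM in GOF, lower in 3 of 4 pairs, and paired edgeR called 2 of 8 tested lower. The lung capillary list summed to 925 to 1157 CPM in control and 1065 to 1321 CPM in GOF, higher in all 4 pairs, with none of its 7 tested genes called. The part of either list in the results was not tested. Mitochondrially encoded transcripts, also lower in all 4 pairs, summed to 13722 to 20669 CPM in control and 11124 to 17588 CPM in GOF.

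**Figure D3:**
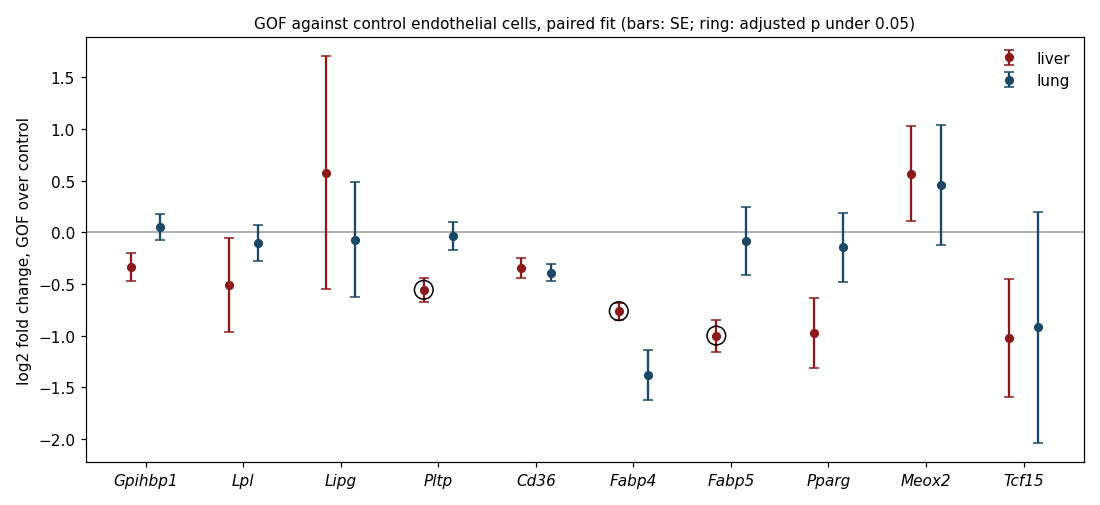
Log2 fold change, GOF over control, of each gene in the fit paired by letter, for liver and lung (4 pairs each), with bars of 1 SE and rings where the adjusted p was under 0.05. Rings mark Pltp, Fabp4 and Fabp5 in liver; the lung values of Fabp4 and Cd36 also lie below 0, without rings.

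In lung, Fabp4 and Cd36 were the genes lower in GOF in all 4 pairs, a pattern of 5.64% of 14107 genes with a mean of at least 1 CPM. Their mean levels were 2.10-fold and 1.27-fold lower. edgeR called 0 of the 10 without pairs, where 0 of 15641 genes passed (0%; 341 genes and 1 of the 10 had an unadjusted p under 0.05). With pairs it again called 0 of the 10, where 0.0192% of genes passed, and 2 of the 10, Fabp4 and Cd36, and 954 of the 15641 genes had an unadjusted p under 0.05. Paired DESeq2 called both lower, among 0.748% of genes in either direction, and unpaired DESeq2 called none of the 10 among 0.0706%. In the authors' deposited table no gene of the 10 passed, with an FDR of 0.999956 for each; 1 of 18373 genes there had an FDR under 0.05.

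Fabp4 measured 22.3, 46.5, 8.29 and 8.58 CPM in GOF libraries B, E, F and D of lung, against 38.3, 74.7, 34.9 and 31.8 CPM in control. The ratios to control were 0.581 and 0.623 in B and E and 0.237 and 0.270 in F and D. The groups overlapped because GOF library E exceeded 3 of the controls. The paired log2 fold change was -1.38 ± 0.24 (edgeR adjusted p = 0.156; paired DESeq2 adjusted p = 0.000245), and over the paired alternatives the value ranged from -1.61 to -1.15. The unpaired value was -1.11 ± 0.51 (edgeR adjusted p = 0.9998) and moved to -0.73 without control library E and to -1.81 without GOF library E. Platelet markers were at 750.2 and 513 CPM in the E libraries of control and GOF, against 26.9 to 97.9 CPM in the other 6, and their part in the high Fabp4 of E was not tested.

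Cd36 measured 1673, 1903, 2998 and 2066 CPM in GOF lung against 2233, 2478, 3564 and 2668 CPM in control. The ratios were close together, from 0.749 to 0.841, while the levels of F were high in both genotypes, so that the groups overlapped. The paired log2 fold change was -0.39 ± 0.080 (edgeR adjusted p = 0.214; paired DESeq2 adjusted p = 0.000359), against -0.38 ± 0.20 unpaired (edgeR adjusted p = 0.9998).

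The other genes did not move in a common direction in lung. Fabp5 measured 10.3, 2.79, 14.0 and 14.4 CPM in GOF against 11.1, 6.49, 9.75 and 10.1 CPM in control, lower in B and E and higher in F and D. Pltp measured 664, 658, 723 and 1329.5 CPM in GOF against 559, 913, 798 and 1025 CPM in control, higher in B and D and lower in E and F. Gpihbp1 split in the same way by pair, at 139, 117, 173 and 262 CPM in GOF against 117, 133, 183 and 205 CPM in control. All 3 had paired log2 fold changes between -0.089 and 0.053, with SEs of 0.13 to 0.33. Alveolar type 2 markers summed to 1929 to 11962 CPM in GOF lung, again lowest in E and highest in D, as Gpihbp1 and Pltp were; their part was not tested.

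Lpl was at 61.5, 36.7, 46.6 and 64.1 CPM in GOF lung and lower than control in 3 of 4 pairs, with B higher at a ratio of 1.51. Lipg was at 10.5, 1.81, 3.41 and 4.78 CPM, with pair B 3.73-fold higher and the other 3 lower. Pparg (8.33, 9.43, 5.21 and 5.14 CPM) and Meox2 (10.5, 4.15, 4.95 and 2.51 CPM) were each higher in 2 pairs and lower in 2. Meox2 in pair B was 4.47-fold higher, close to the ratio of 4.70 in the liver libraries that carry the same letter. Tcf15 was at 1.32, 2.38, 0.295 and 0.568 CPM, lower in 3 of 4 pairs, on 9 to 63 reads a library. No edgeR adjusted p of these 5 genes in the paired fit was below 0.949.

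Some marker lists of blood and immune cells had higher sums in GOF lung: those of lymphocytes, neutrophils and monocytes summed to 11.6 to 103 CPM in control and 82.1 to 108 CPM in GOF, and those of Kupffer cells and other macrophages to 35.3 to 84.4 and 63.3 to 125 CPM, each higher in all 4 pairs, with the Kupffer cell gene Clec4f at 0 in all 8 lung libraries. Erythroid markers were also higher in all 4 pairs (3.67 to 25.8 CPM in control, 3.87 to 49.0 CPM in GOF). The sum of liver sinusoidal markers was lower in all 4 (1865 to 2499 and 1702 to 2399 CPM). The median log2 fold change of the 8 sinusoidal genes tested was nevertheless positive, 0.30 paired and 0.12 unpaired. Platelet markers were lower in 3 of 4 pairs (37.1 to 750.2 and 26.9 to 513 CPM), alveolar macrophage markers were lower in 2 and higher in 2 (6.56 to 19.7 and 12.6 to 35.1 CPM), and edgeR called no gene of these lists in lung. The part of these cells in the lower Cd36 and Fabp4 was not tested. Pan-endothelial sums were 14232 ± 1655 CPM (SD, n = 4) in control lung and 13469 ± 2579 CPM in GOF lung.

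**Figure D4:**
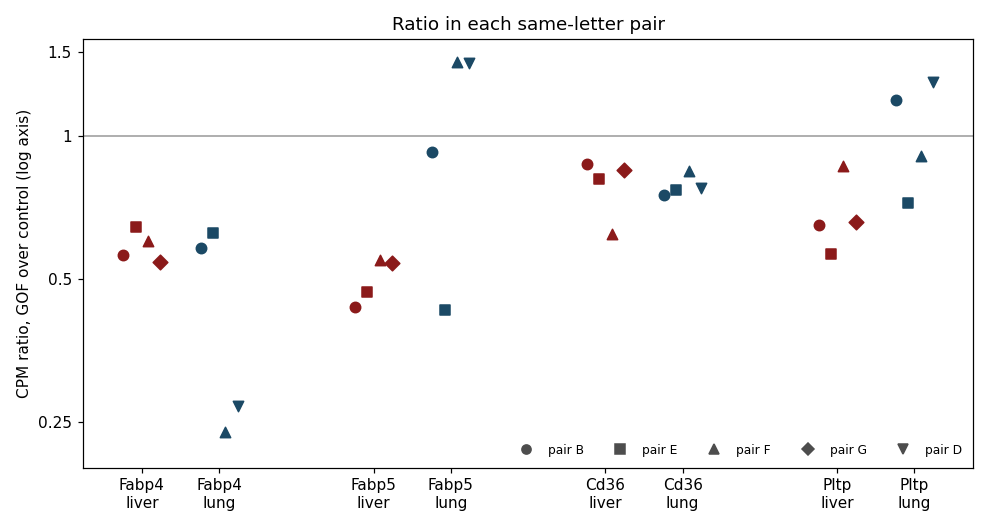
Ratio of CPM, GOF over control, in each same-letter pair of liver and lung, on a log axis, with 1 point per pair and a line at 1. Every point of Fabp4 and Cd36 lies below 1 in both tissues, the Fabp4 ratios of lung pairs F and D lie at 0.237 and 0.270, and Fabp5 and Pltp lie below 1 in all liver pairs and on either side of 1 in lung.

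Whether GOF acted differently in the organs was tested as the lung effect minus the liver effect over all 16 libraries. None of the 10 genes passed in edgeR, unpaired (1 gene in all, 0.00570% of 17536; 1 of the 10 and 1005 genes with an unadjusted p under 0.05) or paired (0.490% of genes; 3 of the 10 and 1877 genes), nor in DESeq2, unpaired (0.251%) or paired (2.21%). The paired difference was 0.92 ± 0.37 for Fabp5 (edgeR adjusted p = 0.379), 0.52 ± 0.19 for Pltp (edgeR adjusted p = 0.313) and 0.83 ± 0.52 for Pparg (edgeR adjusted p = 0.622). Each of these genes was lower in all 4 liver pairs and in 2 of 4 lung pairs. The difference was -0.61 ± 0.27 for Fabp4 (edgeR adjusted p = 0.441) and -0.042 ± 0.13 for Cd36 (edgeR adjusted p = 0.980). The organ pattern of control cells was also visible in GOF cells, given here as values only. Fabp4 averaged 28.9-fold more in GOF liver than in GOF lung, and Cd36, Pltp and Lpl 5.82-fold, 14.96-fold and 14.3-fold more in GOF lung, without overlap, whereas the Fabp5 and Gpihbp1 groups overlapped between GOF liver and GOF lung. The share of all genes without overlap between the GOF organs was not computed. Between the control organs it was 14.7% with lung higher and 18.7% with liver higher.

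A wider list of 94 other gene symbols of fatty acid handling was examined, of which 91 were in the files. Acbp, another name of Dbi, was listed beside it and is among the symbols not found. In liver, paired edgeR called 4 of 82 tested lower and 0 higher, where 2.58% of all genes passed, and the median log2 fold change of the list was -0.10 against 0.0076 over all genes. The 4 were Mgll, which hydrolyses monoacylglycerols (403 ± 54.7 CPM in control libraries, 275 ± 25.5 CPM in GOF libraries, SD, n = 4; log2 fold change -0.54 ± 0.095), the transport protein Slc27a3 (101 ± 45.1 and 56.8 ± 11.96 CPM; -0.73 ± 0.14), the acyl-CoA binding protein Dbi (88.8 ± 22.6 and 62.3 ± 9.62 CPM; -0.48 ± 0.11) and the mitochondrial oxidation enzyme Hadh (75.0 ± 25.6 and 53.2 ± 17.1 CPM; -0.48 ± 0.11). Their edgeR adjusted p-values were 0.0128, 0.0176, 0.0378 and 0.0426. Without pair F none of the 4 passed, and each was lost without at least 1 pair; unpaired edgeR called 0 (9 with an unadjusted p under 0.05, beside 1010 of 15555 genes in all). By group, these were 1 of 14 lipase-system genes, 1 of 7 transport proteins, 1 of 4 binding proteins and 1 of 15 genes of beta-oxidation, while 0 of 5 acyl-CoA synthetases, 0 of 9 PPAR and RXR regulators, 0 of 9 lipoprotein receptors and transfer genes, 0 of 7 genes of the MEOX and TCF15 group and 0 of 12 lipid droplet genes passed.

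In lung, edgeR called 0 of 72 tested genes of the wider list, unpaired (1 with an unadjusted p under 0.05, beside 341 of 15641 genes in all) or paired (7, beside 954). Between the control organs 12 of 81 were higher in lung and 19 higher in liver, where 24.9% of all genes passed. With replicate letters as a block across organs these counts were 6 and 12, where 2066 of 15806 genes passed. The smallest p-values belonged to Cav1, the main coat protein of endothelial caveolae (log2 fold change, lung over liver, 3.27 ± 0.20, edgeR adjusted p = 2.74e-06), Apoe, an apolipoprotein (-2.87 ± 0.24, 1.81e-05), Hilpda, a lipid droplet protein that inhibits lipolysis (2.39 ± 0.25, 6.45e-05), and Slc27a3 (-3.55 ± 0.40, 0.000101). Several genes higher in liver, such as Fabp1, Apoa5, Apoc3 and Slc27a5, are known chiefly from hepatocytes. Hepatocyte markers summed to 860 to 4306 CPM in control liver and 2.52 to 5.13 CPM in control lung. The part of hepatocytes in these differences was not tested.

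For Fabp4, Gpihbp1 and Tcf15, the genes with the most alike pattern over the 16 libraries were sought among 9664 genes with a mean of at least 10 CPM, by the root mean square difference of centred log2(CPM + 0.5). Nearest to Fabp4 was Pde2a, a cyclic nucleotide phosphodiesterase, at 0.41, with means of 2152 and 1521 CPM in control and GOF liver and 82.0 and 48.4 CPM in control and GOF lung. Cyp1b1 at 0.47 and Lhfpl2 at 0.64 followed, and Lhfpl2 was not lower in GOF liver, at 595 against 572 CPM. Nearest to Gpihbp1 were Rgp1 at 0.25, Ap2s1 at 0.26 and Robo4, an endothelial guidance receptor, at 0.29. Nearest to Tcf15 were Lbp, Csrp2 and Smtn, each at 0.38.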

How the data were processed

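Endothelial RNA of 16 libraries was measured by TruSeq RNA V2 sequencing from 2 ng of RNA with 100 bp paired reads, per the labels' protocols. The authors deposited whole-number read counts per gene, unnormalized. Per the submitters' processing notes, the tools were HTSeq 0.6.1, TopHat2 2.0.11, DESeq2, SAMtools 0.1.19 and Bowtie2 2.2.1, with build mm9; which annotation and strand setting were used is not stated in the sources. The authors' deposited tables of comparisons also hold mean normalized signal per gene, log2 fold changes, score columns (their standard error and Wald statistic) and p-values with FDR; the header does not state the direction of the fold change, and its sign matched GOF over control for Fabp4 and Fabp5.

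Genes were called members by symbol. The members and all gene lists were chosen with earlier results of these data known. Levels are CPM computed from these counts. Fits used edgeR 4.0.16 in R 4.3.3 (TMM scaling, filterByExpr with a minimum count of 10, quasi-likelihood test, Benjamini-Hochberg over all genes tested, threshold 0.05); DESeq2 1.42.0, other scalings, no filter, a replicate block and leaving out libraries were alternatives. The fitting step was tested on simulated data. The letters' meaning is not stated; same-letter deviations from group means correlated at 0.171 to 0.290 in liver and 0.110 to 0.188 in lung, so libraries were taken as paired within a tissue. Only the block between control organs matched letters across tissues. Each gene of the 10, up to 4 called genes of the wider list per comparison with the smallest p, and the 3 nearest patterns of 3 genes are named. The 16 deposited CPM columns were not used.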

Additional observations from a re-analysis of the deposited data

Results flagged for a closer look

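Among 40 sets of 4 libraries (10 genes in 4 groups), 3 held a library far from the other 3; chance gives about 1 in 20. Pltp in GOF lung library D was at 1329.54 CPM, against 658 to 723 CPM in the others. Fabp4 in control lung library E was at 74.689 CPM, against 31.8 to 38.3 CPM. Meox2 in GOF liver library B was at 14.6216 CPM, against 3.82 to 5.65 CPM. Alveolar type 2 markers were highest in lung D and platelet markers in lung E, as given above; the cause of these values was not tested.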

How the results depend on the processing

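Of the 10 genes, 6 passed between control lung and control liver under all 13 alternatives. The number in liver GOF was 3 with the replicate block and 2 with DESeq2, and 0 with the other scalings, without the filter and without any single library; with the block it was 3 or 4 under other scalings and DESeq2 and 2 to 3 without a pair. In lung it was 0 except for 2 with the replicate block and DESeq2. Blocked fits with other scalings or DESeq2 were added after the data were seen. The block changed no other call among the 10.

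Counts of all genes past the threshold moved more. In liver they were 401 with the replicate block, 3 with upper-quartile scaling, 150 with DESeq2, 27 without the low-count filter and 1 to 12 without a library; with the block, 950 with DESeq2 and 256 to 308 without a pair. In lung they were 3 with the replicate block, 11 with DESeq2 and 0 to 1 without a library; with the block, 6 with upper-quartile scaling, 117 with DESeq2 and 0 to 5 without a pair. Between control organs the replicate block gave 2066. For the difference between organs they were 86 with the replicate block, 44 with DESeq2 and 1 to 3 without a library; with the block, 388 with DESeq2 and 54 to 184 without a pair.

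Signs turned only for log2 values that passed no test. With the replicate block, lung values became -0.071 (Lipg), -0.035 (Pltp) and -0.089 (Fabp5), and the organ value of Meox2 became -0.036. Pltp in lung was -0.0079 with RLE scaling and with DESeq2, and -0.0069 without the filter. With upper-quartile scaling the organ values of Pparg and Meox2 were both -0.032. Without single libraries the ranges were -0.63 to 0.62 for Lipg in liver, and in lung -0.20 to 0.24 (Gpihbp1), -0.25 to 0.14 (Lpl), -0.41 to 0.51 (Lipg), -0.32 to 0.11 (Pltp), -0.11 to 0.42 (Fabp5), -0.55 to 0.18 (Pparg) and -0.10 to 1.04 (Meox2). Between control organs they were -0.44 to 0.29 (Pparg) and -0.57 to 0.26 (Meox2). For the difference between organs they were -0.37 to 0.32 (Cd36) and -1.07 to 0.018 (Fabp4), and with the block -0.16 to 0.0024 (Cd36). Paired Lipg in liver ran from -0.29 to 1.24 without a pair. The causes were not tested. Lipg, Tcf15, Meox2, Pparg and, in liver, Lpl rest on few reads. So does Fabp5 in lung, on 74 to 481 reads a library.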
